A study of Drosophila melanogaster with 2 samples.

Results

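The 9 genes described here encode factors that act at Drosophila promoters: Trl (GAGA factor), psq (Pipsqueak), lolal (Batman), Clamp, M1BP, gfzf, Dref, pzg (Putzig, also called Z4) and Adf1. They were taken by symbol, through their FlyBase identifiers, from a table of 17807 genes, and all 9 symbols were found. The data are 2 RNA-seq libraries of Kc167 cells, replicates 1 and 2 of a single group. According to the methods of the study they belong to, they were prepared with poly(A) enrichment and a stranded kit. The library names read total RNA. Kc167 is an established Drosophila cell line of embryonic origin. The cells were grown at 25 °C, and all of them had received 2% DMSO for 1 h, so the group serves as the solvent control and no comparison between conditions can be made. Nothing in the labels says whether the replicates came from separate cultures, and a difference between them may therefore be technical.

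Metazoan genes are read from promoters of different kinds, and in Drosophila each kind is recognised by its own factors. Promoters of developmental and stress genes, where RNA polymerase II often pauses, frequently carry GA-rich elements that are bound by GAGA factor, Pipsqueak and CLAMP. Promoters of housekeeping genes carry other elements instead, among them Motif 1, bound by M1BP, and the DNA replication-related element, bound by DREF. The study these libraries belong to profiled the binding of TFIID at promoters of different kinds. Here the libraries give the RNA level of the genes that encode the promoter-binding factors themselves.

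Replicate 1 held 33436865 read pairs counted on genes and replicate 2 held 31721648. At these depths a gene without any count could still have had up to 0.0897 CPM (counts per 1e6 gene counts) in replicate 1, or 0.0946 in replicate 2, which is the worth of 3 counts and covers counting error only. Of the hemocyte markers listed, genes of the blood cell lineage to which Kc167 cells are often likened, 10 of 10 reached 10 counts in both libraries. Their levels summed to 1049 TPM in replicate 1 and 1071 in replicate 2. Of the markers of other tissues, 3 of 3 for neurons, 1 of 3 for muscle, 1 of 2 for germline and 0 of 3 for fat body did so, with sums between 0.0467 and 6.08 TPM per list and library, and Yp1, a yolk protein gene, was at 0 in both. The germline gene below the minimum was osk, of whose exonic bases 21.5% lie outside other genes of its strand, and 1 further germline marker that had been planned was not analysed here. These sums use the length in which each exonic base is counted once. On that scale the means of the hemocyte markers ranged from 2.42 TPM (NimC1) to 263 TPM (Col4a1). NimC1 and eater, at 3.45 TPM, lay below the germline marker vas, at 5.73 TPM, and the other hemocyte markers lay above it. Reaching 10 counts does not by itself set the lineage apart, as 49.7% of all genes in the table did so.

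All 9 factor genes reached a minimum of 10 counts in both libraries, as did 49.7% of the genes in the table. Together they took 40942 counts in replicate 1 and 38854 in replicate 2, that is 0.122% of the gene counts in each. The deposited level of a gene is its TPM, a measure of transcripts per length: each count is divided by the length given for the gene, and the results are rescaled so that every library has the same sum. For comparisons between genes the choice of that length mattered. A second level was therefore calculated from the same counts with each exonic base of the gene counted once, and it is called the exonic TPM here.

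Among the factors of GA-rich elements, Trl encodes GAGA factor, a protein with a BTB domain for self-association and a single zinc finger that binds GAG trinucleotides. Trl (FBgn0013263) lies on the minus strand of chromosome 3L, from 14747929 to 14761049 in dm6 coordinates. Replicate 1 had 633 counts of Trl and replicate 2 had 610, the lowest of the 9 genes in both. Its deposited level was 1.84 TPM in replicate 1 and 1.89 in replicate 2, with a mean of 1.87 ± 0.0362 (SD, n = 2). That mean lay above only 12.1% of the 8846 genes that reached the minimum.

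This value covers a small part of the gene, since most of its exons are shared with other annotated genes. A gene called CG42507 is annotated on the same strand from 14747929 to 14757962, and its coding part, from 14748706 to 14749659, lies downstream of the last coding bases of Trl. All 4441 exonic bases of CG42507 lie in exons of Trl, and CG42507 had 0 counts in both libraries. Another gene on the strand, Tsen34, a subunit of the tRNA splicing endonuclease, shares another 424 bases at the 5′ end of Trl. The counting rule of STAR assigns a read pair only where it touches a single gene, so a pair in the shared bases is counted on none of them. Of the 6254 exonic bases of Trl, 1389 (22.2%) lie outside these genes.

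The countable bases fall into 3 blocks, of 1025, 358 and 6 bases. The longest reaches from 14750242 to 14751266, in the last exon that some of the transcripts use, and the next from 14757484 to 14757841, in a first exon. Of the 2231 coding bases of Trl, 105 are countable, and none of those lies in the coding exons shared by all transcripts. Of the 10 annotated transcripts, 4 have no countable base and 2 others have under 200. The longest transcript, of 4441 bases, is among those without any. The 633 and 610 counts therefore come from a part of the transcripts only, and RNA of the other transcripts cannot be told apart from RNA of CG42507. Tsen34, with 478 countable bases of its own, had 116 counts in replicate 1 and 128 in replicate 2.

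**Figure D1:**
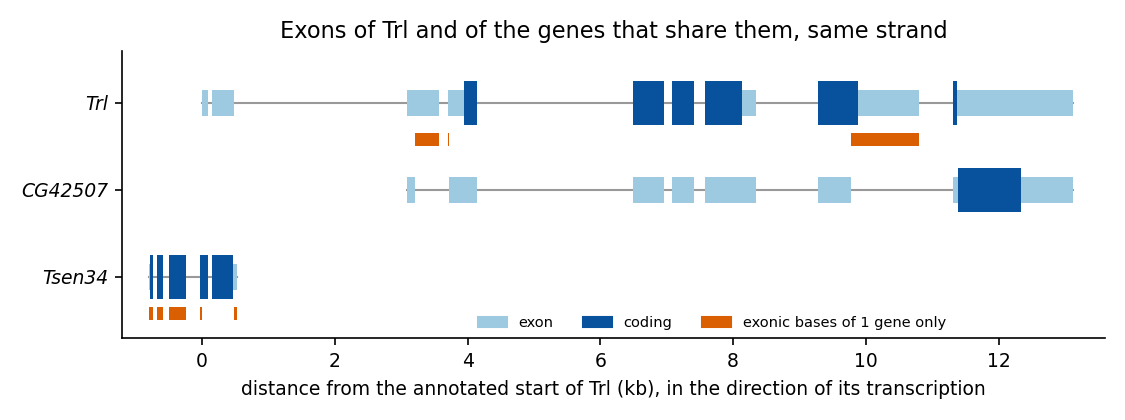
Map of the Trl locus, with the distance in kb from the annotated start of Trl on the horizontal axis, running in the direction of transcription. Light blue boxes are exons, dark blue boxes are coding parts, and the orange bars mark exonic bases that belong to 1 gene only; Trl has 1389 of them and CG42507 has none.

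The level of Trl was calculated in further ways to show how far it depends on this. The exonic TPM was 5.86 in replicate 1 and 5.98 in replicate 2. Dividing by the 1389 countable bases alone, a length chosen after the data were seen, gave 26.2 and 26.7 TPM, and the mean of 26.5 ± 0.383 (SD, n = 2) lay above 42.9% of 8795 genes. This is 14.2 times the deposited mean, from the same counts. A read pair that touches a shared base besides a countable one is also counted on no gene, so the 1389 bases still overstate the usable length. Among the genes that reached the minimum, 0.534% had more than 50% of their exonic bases inside other genes of the same strand. Of the 9 factor genes, 1 was among them, Trl. No exonic base of the other 8 was shared in this way. Sharing takes counts away, so a gene can miss the minimum because of it. The share over all annotated genes was not determined.

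The gene psq encodes Pipsqueak, another BTB protein that binds GAGAG, through repeated helix-turn-helix motifs. It lies on the plus strand of chromosome 2R, from 10557888 to 10617280, with identifier FBgn0263102. Replicate 1 had 5745 counts of psq and replicate 2 had 5503. Its deposited level was 8.49 and 8.68 TPM, and the mean of 8.59 ± 0.130 (SD, n = 2) was above that of Trl only. With each exonic base counted once the level was 43.7 in replicate 1 and 44.4 in replicate 2, with a mean of 44.0 ± 0.453 (SD, n = 2). The deposited length of psq is 61123 bases, which is 8.04 times its 7602 exonic bases. With 15 annotated transcripts, psq has the most of the 9 genes. Its deposited length was not reached by adding up these transcripts, which gives 76909 bases, so the annotation behind the deposited length may differ from the one used here at this gene.

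The gene lolal encodes Batman, a small protein that consists of little more than a BTB domain and binds GAGA factor. It lies on the minus strand of chromosome 2R, from 18154095 to 18158192 (FBgn0022238), and had 7242 counts in replicate 1 and 6723 in replicate 2. Its deposited level was 71.0 and 70.3 TPM, in the middle of the 9. Its exonic TPM was 174 in replicate 1 and 172 in replicate 2, with a mean of 173 ± 2.05 (SD, n = 2), above the values of the other 8 genes in both libraries. The 8 annotated transcripts of lolal add up to 9213 bases, whereas its exons cover 2402.

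Clamp encodes a zinc finger protein that binds long GA repeats. In males it helps the MSL dosage compensation complex to find the X chromosome. The gene (FBgn0032979) lies on the minus strand of chromosome 2L, from 22165720 to 22169143. There were 5566 counts of Clamp in replicate 1 and 5244 in replicate 2, with a deposited level of 90.9 and 91.3 TPM. The exonic TPM was 111 in both libraries, with a mean of 111 ± 0.158 (SD, n = 2). On either scale 6 of the 9 genes were lower than Clamp. The combgap gene cg, whose product also binds GA repeats, had an exonic TPM of 99.0 ± 1.15 (SD, n = 2).

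Among the factors of housekeeping promoters, M1BP encodes a zinc finger protein that binds Motif 1, the element called Ohler 1 in the study. The gene (FBgn0037621) lies on the minus strand of chromosome 3R, from 8729790 to 8731698. The counts of M1BP were 1545 in replicate 1 and 1496 in replicate 2. The deposited level was 91.9 and 94.9 TPM, the second highest mean of the 9. Its exonic TPM was 58.8 in replicate 1 and 60.4 in replicate 2, with a mean of 59.6 ± 1.07 (SD, n = 2), above psq and Trl only. M1BP is the only one of the 9 with a single annotated transcript, so its length is 1519 bases on both scales, and the fall came from the rescaling to a fixed total.

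The gene gfzf encodes a protein with FLYWCH zinc fingers and a glutathione S-transferase domain, which acts as a cofactor of M1BP at Motif 1 promoters. It lies on the minus strand of chromosome 3R, from 7145880 to 7150968 (FBgn0250732). Its counts were 4153 in replicate 1 and 4044 in replicate 2, and its deposited level was 43.0 and 44.7 TPM. The exonic TPM was 60.7 and 62.6, with a mean of 61.7 ± 1.35 (SD, n = 2). On that scale gfzf stood 1.03 times above M1BP in replicate 1 and 1.04 times in replicate 2, and the counting intervals of the genes overlapped in both libraries. On the deposited scale M1BP was instead the higher of the pair.

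Dref encodes the DNA replication-related element factor, a BED finger protein that activates many genes of DNA replication and growth. It lies on the minus strand of chromosome 2L, from 9964147 to 9967229 (FBgn0015664). Dref was counted 4913 times in replicate 1 and 4451 times in replicate 2, with a deposited level of 79.1 and 76.5 TPM. Its exonic TPM was 99.0 in replicate 1 and 94.98 in replicate 2, with a mean of 97.0 ± 2.82 (SD, n = 2).

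The gene pzg encodes Putzig, a zinc finger protein found with DREF and TRF2 and, in polytene chromosomes, at interbands. Its gene is on chromosome 3L, plus strand, from 21286099 to 21290310 (FBgn0259785). With 8335 counts in replicate 1 and 8050 in replicate 2 it had the most counts of the 9. Its deposited level of 95.1 and 98.0 TPM was also the highest. The exonic TPM was 118 and 121, with a mean of 119 ± 1.92 (SD, n = 2), second to lolal.

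Adf1 encodes a MADF-domain factor first described as an activator of the alcohol dehydrogenase gene Adh. The gene (FBgn0284249) lies on the plus strand of chromosome 2R, from 6662265 to 6668085. Adf1 had 2810 counts in replicate 1 and 2733 in replicate 2, with a deposited level of 37.3 and 38.7 TPM. Its 4 transcripts add up to 6806 bases over 1800 exonic bases, and the exonic TPM was 90.3 and 93.1, with a mean of 91.7 ± 1.93 (SD, n = 2).

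**Figure D2:**
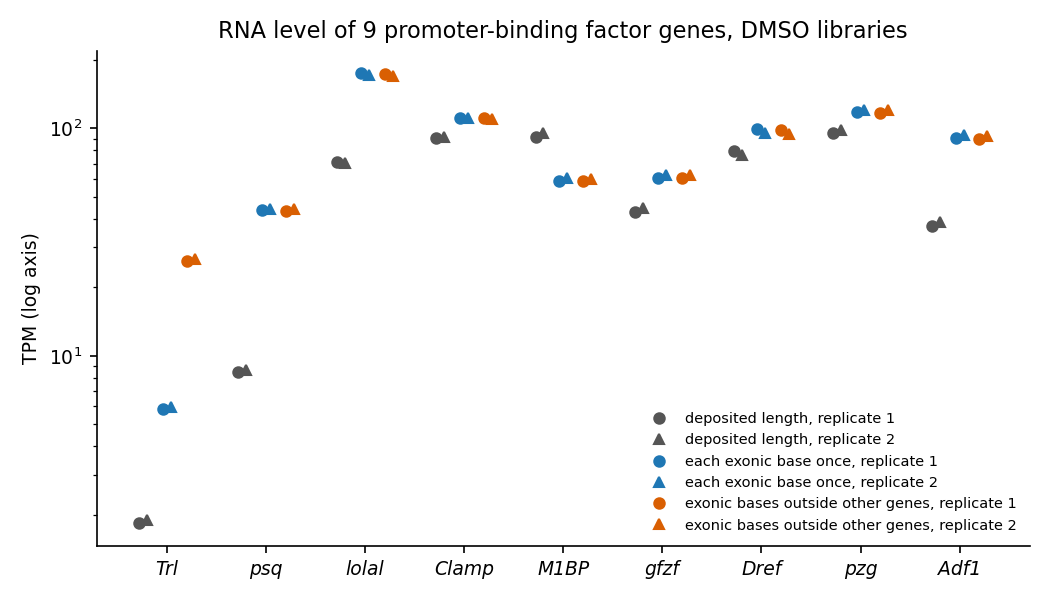
RNA level (TPM, log axis) of the 9 genes in replicate 1 (circles) and replicate 2 (triangles), with the deposited length (grey), with each exonic base counted once (blue) and with exonic bases outside other genes (orange). The replicates lie close together at every gene, while the scales part widest at Trl and psq; M1BP is the only gene lower by exonic than by deposited TPM, at 59.6 against 93.4, and Trl ranges from 1.84 to 26.7 TPM.

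The order of the 9 levels was the same in both libraries on each scale, but differed between the scales. By deposited TPM it ran from pzg through M1BP, Clamp, Dref, lolal, gfzf, Adf1 and psq to Trl. By exonic TPM it ran from lolal through pzg, Clamp, Dref, Adf1, gfzf, M1BP and psq to Trl. M1BP moved from the second place to the seventh, and lolal from the fifth to the first. The library values of neighbours in the order did not overlap on either scale. This says little for the closest ones, as each range rests on 2 values. By 95% Poisson intervals of the counts, pzg and M1BP, and M1BP and Clamp, could not be separated on the deposited scale in either library. In replicate 1, pzg and Clamp could not be separated on that scale either. On the exonic scale gfzf and M1BP could not be separated in either library, nor could Dref and Adf1 in 1 of the 2. With 2 libraries an exact permutation test of a gene against another cannot give a p below 0.333, so no test of these differences was made. Without Trl, the highest gene stood 11.2 times above the lowest on the deposited scale, and with Trl 51.7 times.

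The lengths behind these shifts were compared directly. For 8 of the 9 genes the deposited length was equal to the exons of all annotated transcripts added together, with an exon entering once for every transcript that holds it. The exception was psq. The deposited length was at least 2 times the exonic length at 5 of the 9 genes, Trl, psq, lolal, gfzf and Adf1, and at 29.8% of the genes that reached the minimum. The ratio was 1.91 at Clamp, 1.93 at pzg, 1.95 at Dref, 2.20 at gfzf, 3.78 at Adf1, 3.84 at lolal, 4.97 at Trl and 8.04 at psq. Its median over the 9 genes was 2.20, and 1.78 over the genes that passed the minimum.

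**Figure D3:**
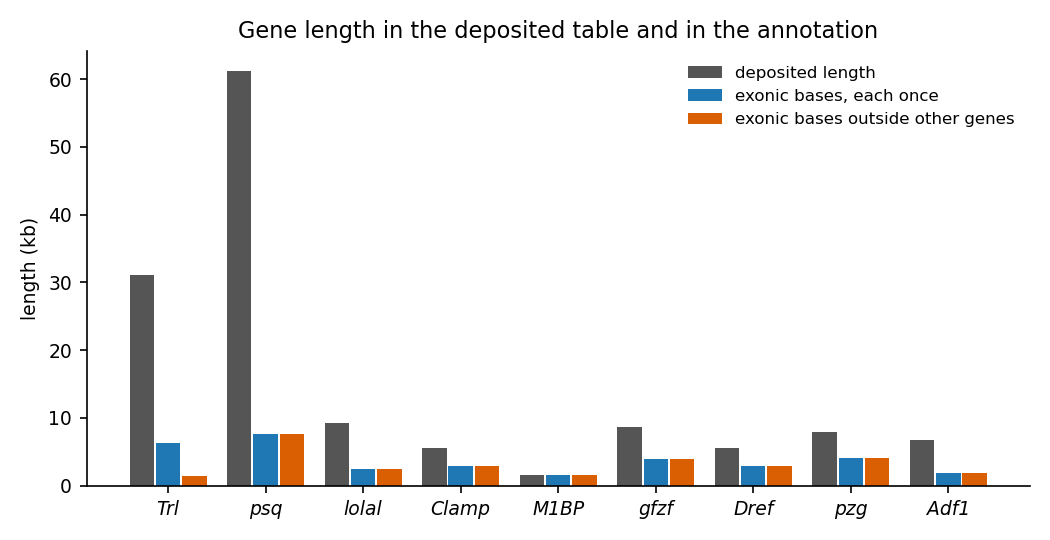
Gene length in kb for the 9 genes as in the deposited table (grey), with each exonic base counted once (blue), and over exonic bases outside other genes of the same strand (orange). The deposited length of psq is 8.04 times its exonic length, that of M1BP is equal to it, and the orange bar departs from the blue bar at Trl alone.

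Against all genes, the median of the 9 was 6.16 on the log2(TPM + 1) scale of the deposited values and 4.95 over the 8846 genes that passed the minimum. By exonic TPM the medians were 6.53 over the 9 and 5.17 over 8795 genes. Of the 9 genes, 8 lay above the median of those genes by exonic TPM, all but Trl, and 7 by deposited TPM, where psq also lay below. For Trl both values rest on the 22.2% of its exonic bases that are countable. Over these bases alone it still lay below the median, above 42.9% of the genes. The exonic TPM of lolal lay above 90.0% of the genes, that of pzg above 84.6% and that of psq above 57.2%. These are descriptions of a chosen list and were not tested.

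The libraries were then compared with each other, gene by gene, by an exact two-sided binomial test of the counts against the library totals. This compares libraries of 1 condition with sampling noise. None of the 9 genes differed at an adjusted p of 0.05 in this test, adjusted by the Benjamini-Hochberg method over 8846 genes, and 1.51% of those genes did. Before adjustment 1 of the 9 had a p under 0.05, as did 891 of the 8846 genes. With TMM factors of edgeR or size factors of DESeq2 in place of the library totals, 0 of the 9 genes differed as well. The gene of the lowest p was Dref, with 147 CPM in replicate 1 and 140 in replicate 2, a ratio of 1.05 (binomial p = 0.0262, adjusted p = 0.377, exact test). Its adjusted p lay between 0.268 and 0.519 over the alternatives tried. The log2 ratio of replicate 1 over replicate 2 was 0.07 at Dref, with a 95% interval from 0.0077 to 0.125, and lay between -0.04 and 0.03 at the other 8, whose intervals all included 0. The interval was widest at Trl, from -0.185 to 0.140, where the counts are fewest.

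**Figure D4:**
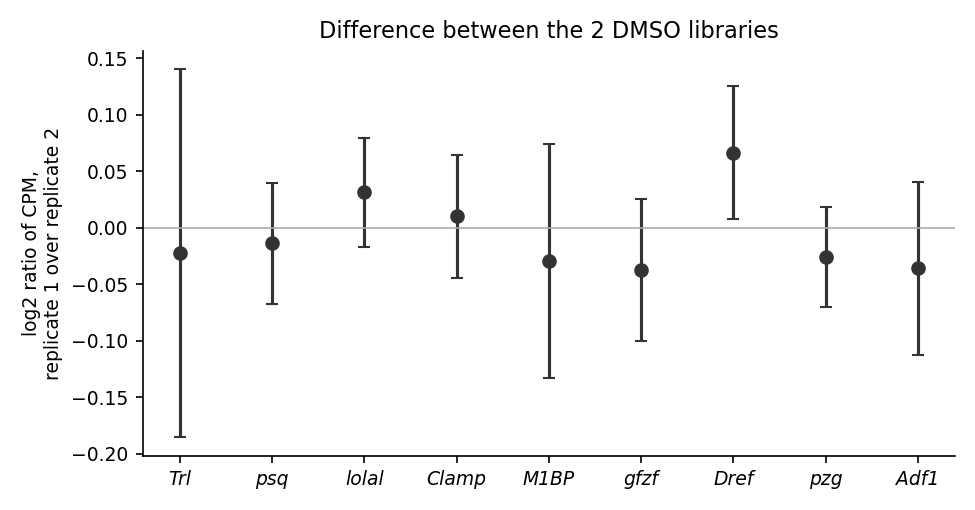
Log2 ratio of CPM in replicate 1 over replicate 2 for each of the 9 genes, with exact 95% intervals that cover counting error only. The points lie between -0.04 and 0.07, and the interval of Dref alone lies above 0.

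Since the kit keeps the strand, reads of neighbours on the opposite strand could be set apart. Reads of the opposite orientation made up between 0.873% (Clamp) and 3.38% (M1BP) of both orientations in replicate 1, and between 0.777% (pzg) and 3.36% (M1BP) in replicate 2. Among protein-coding genes of 1000 counts or more in both libraries the median was 1.24% in replicate 1 and 1.14% in replicate 2, with a 95th percentile of 8.13% and 7.62%. All 9 lay below that percentile, although Trl, with 633 and 610 counts, is not among the genes it was taken over. At M1BP the opposite orientation held 54 of the read pairs in replicate 1 (95% Clopper-Pearson interval from 2.55% to 4.38%) and 52 in replicate 2. At Clamp the strand made a difference of another kind. Its 3′ end overlaps 502 exonic bases of CG42748 on the opposite strand, and unstranded counting gave 5161 read pairs in replicate 1 and 4973 in replicate 2, fewer than the 5566 and 5244 counted by strand. The gene gfzf lies inside CG2656, on the opposite strand, without sharing an exon, and 100 and 108 of its read pairs lay in the opposite orientation.

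Divergent neighbours were looked up as well, a comparison that was not planned. A gene that starts within 1000 bases upstream on the opposite strand was annotated at 8 of the 9, all but psq, against 47.9% of the protein-coding genes that passed the minimum. At Trl this gene is Mgat4a, 979 bases away, and Tsen34, on the strand of Trl, starts between them. At Clamp it is a noncoding RNA gene, lncRNA:CR44809, at 525 bases. The share over all genes was counted by the same rule, whatever the type of the neighbour. At 4 of the 9 the starts lay within 200 bases of each other, a distance chosen after the values were seen, as at 14.2% of the protein-coding genes that passed the minimum. These were lolal with CG10914 at 65 bases, Dref with the ribosomal protein gene RpL13 at 84, pzg with CG12974 at 137 and Adf1 with Dpit47, a co-chaperone gene, at 147. RpL13 had 22712 counts in replicate 1 and 21967 in replicate 2, against the 4913 and 4451 of Dref, and CG12974 had 200 and 201, against the 8335 and 8050 of pzg. These are counts, not levels per length.

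The partners of the factors were measured from fixed lists, and exonic TPM is given throughout. NURF, a nucleosome remodeller that works with GAGA factor, and FACT, a histone chaperone that does so too, had 6 of 6 genes over the minimum of 10 counts. Their median was 324 TPM, against 91.7 over the 9 factor genes. The order within the list depended on the scale. Ssrp, a FACT subunit, had the highest deposited TPM of the 6, but at 265 ± 6.07 exonic TPM (SD, n = 2) it was above E(bx) only. E(bx), the large NURF subunit, was the lowest on both scales, at 71.9 ± 1.15 exonic TPM (SD, n = 2). For the partners of DREF, TRF2 and the NURF subunits, the median was 320 TPM with 5 of 5 genes above the minimum, and Caf1-55, a histone-binding subunit, had the highest deposited level, at 342 ± 5.09 exonic TPM (SD, n = 2). The 3 interband partners of Putzig all passed, from JIL-1, a histone kinase, at 27.5 ± 1.13 (SD, n = 2), to Chro, a chromodomain protein, at 90.6 ± 1.55 (SD, n = 2), with the boundary factor BEAF-32 at 87.6 ± 0.119 (SD, n = 2). The NSL complex, an acetyltransferase complex of housekeeping promoters, had 7 of 7 above the minimum and a median of 78.7 TPM. Its subunit Rcd5 was at 120 ± 3.81 TPM (SD, n = 2), the highest on both scales. The lowest was nsl1 by deposited TPM, which at 78.7 ± 0.925 exonic TPM (SD, n = 2) was itself the median gene of the list. By exonic TPM the lowest was mof, the acetyltransferase, at 15.0 ± 1.09 (SD, n = 2).

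The medians of the interband partners of Putzig (87.6 TPM) and of the NSL complex (78.7 TPM) lay below the 91.7 TPM of the 9 factor genes. Those of 2 further lists were lower still. Among BTB proteins of the ttk group, to which GAGA factor is related, 9 of 10 genes passed the minimum, and the median was 20.3 TPM. The exception was bab1, a limb and pigmentation regulator, with 9 counts in replicate 1 and 2 in replicate 2, while bab2 beside it had 2110 and 1974. Of the MSL complex and the roX RNAs, 6 of 7 passed, with a median of 15.0 TPM. The msl-3 gene, which encodes the chromodomain subunit, was at 37.6 ± 0.201 TPM (SD, n = 2), whereas lncRNA:roX1, an RNA component of the complex that is abundant in males, had 6 counts in each library.

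Target genes of the factors known from earlier work differed widely in level. All 6 genes taken as targets of the DNA replication-related element, Dref itself among them, passed the minimum, with a median of 110 TPM. The replication clamp gene PCNA was the highest on both scales, at 963 ± 12.1 exonic TPM (SD, n = 2). E2f1, a cell cycle regulator, was the lowest by deposited TPM and had 123 ± 5.27 exonic TPM (SD, n = 2). By exonic TPM the lowest was Orc5, an origin recognition subunit, at 39.3 ± 2.07 (SD, n = 2). Of 8 genes taken as targets of GAGA factor, 3 passed. Hsp26, a small heat-shock gene and the highest of them by deposited TPM, had 47928 counts in replicate 1 and 45772 in replicate 2, at 2762 ± 22.6 exonic TPM (SD, n = 2). By exonic TPM the actin gene Act5C was higher, at 3130 ± 75.97 (SD, n = 2). Ubx and ftz, homeotic and segmentation genes, had 0 counts in both libraries, as did Hsp22. The 0 at Hsp22 cannot be read as a level, since all 1900 of its exonic bases lie in exons of other genes on the same strand. Of 3 targets of Adf1, 1 passed, Ddc, which encodes dopa decarboxylase, with 85 counts in replicate 1 and 100 in replicate 2. Adh was listed at 0, and only 6.12% of its exonic bases lie outside other genes of its strand. For the factors themselves, only the RNA levels above were measured in the same libraries. Their proteins were not measured, and their binding at these genes was not analysed here.

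**Figure D5:**
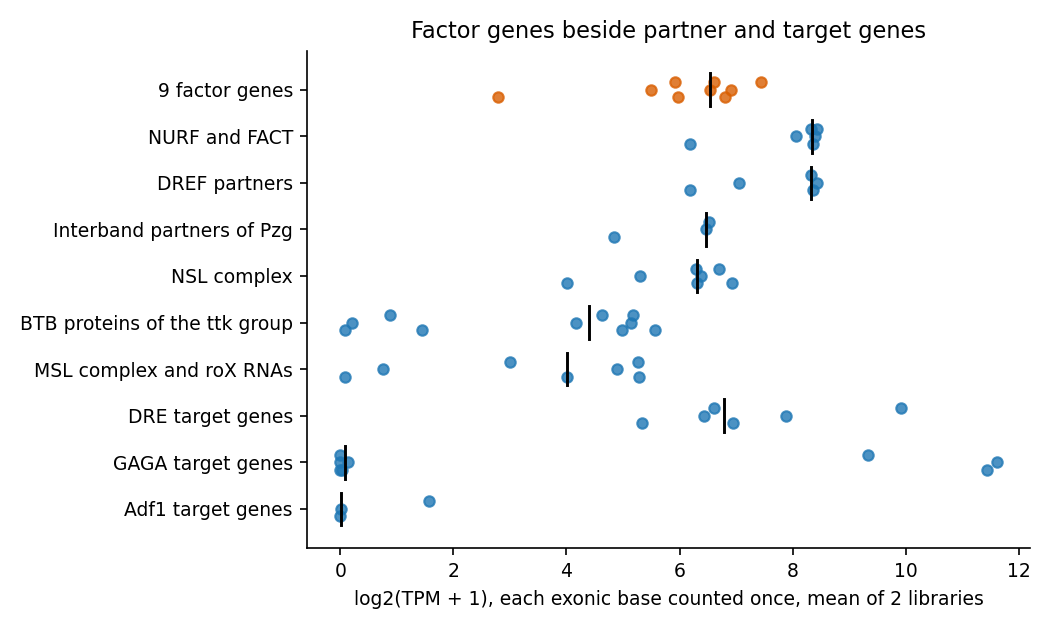
Levels of the 9 factor genes (orange) and of the listed partner and target genes (blue) as log2(TPM + 1) with each exonic base counted once, mean of both libraries, 1 point per gene, with the median of each list as a black line. The 9 factor genes have a median of 6.53, and the outlying orange point at 2.79 is Trl, of whose exonic bases 22.2% are countable.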

How the data were processed

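RNA-seq of 2 libraries of Kc167 cells was used, replicates 1 and 2 of the DMSO control. Per the methods of the study, STAR (2.7.1a in the submitters' processing notes) aligned the read pairs to dm6 and counted them per gene. The authors deposited the raw counts of read pairs per gene in 3 strand columns for each library, and a table of counts, gene length and TPM. The deposited TPM was recalculated exactly from the counts and lengths, and the combined column is the authors' mean. Rows that name no gene took 21.6% (replicate 1) and 21.0% (replicate 2) of all read pairs and were left out of library sizes. With 1 condition no test between groups was made.

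Symbols came from a table that matched 17710 of 17807 identifiers. Coordinates, exons and transcripts are those of BDGP6.54 in Ensembl release 115, in dm6 coordinates, for 17710 genes. Exonic TPM and the TPM over countable bases, that is, exonic bases outside the exons of other genes on the same strand, were calculated over the genes it covers. A minimum of 10 counts in each library was applied. The binomial test was run on simulated libraries with Poisson noise only, so that check does not cover spread beyond counting error. Intervals are 95% and cover counting error only. Library factors of edgeR 4.0.16 and DESeq2 1.42.0 in R 4.3.3 were alternatives to the library totals. Tests were run in scipy 1.17.1 under Python 3.11.15, on tables held in pandas 2.3.3.

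The members, lists and tests were chosen with earlier results of these data known. All 9 members are described. Of each list of partner or target genes, the genes named are the highest and lowest by deposited TPM and those at 0 counts where there are 3 or fewer. This rule was not followed for the marker lists, where the highest hemocyte marker by deposited TPM and the neuron and muscle markers were not named. Chro, mof, msl-2, lncRNA:roX2, Orc5, Act5C, osk, eater, Col4a1, vas and the divergent neighbours of the members were named after their values were seen. Motifs in promoters and features of the proteins were planned but not computed, since no sequence was used here.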

Additional observations from a re-analysis of the deposited data

How the results depend on the processing

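All 9 genes reached the minimum of counts under every alternative run, among them a minimum of 100 counts, and none of the 9 differed between the libraries with TMM factors, DESeq2 size factors, unstranded counts, no minimum or without mitochondrial genes, with adjusted p from 0.268 to 1 over these alternatives and the test as reported. The median opposite-strand share of the 9 was 1.58%, and from 1.57% to 1.59% with 1 library left out.

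The highest gene stood 51.7 times above the lowest by deposited TPM, from 51.7 to 51.8 times with 1 library left out. The ratio was 29.6 with the longest transcript, 29.2 on the exonic scale and 51.5 with unstranded counts. Over countable bases it was 6.49, and without Trl 11.2; these last alternatives were chosen after seeing the data. The median log2(TPM + 1) of the 9 was 6.16, from 6.16 to 6.17 with 1 library left out. It was 6.48 with the longest transcript, 6.53 on the exonic scale, 6.52 over countable bases, 6.22 with unstranded counts, 6.33 without mitochondrial genes, 6.23 without Trl and 6.15 with a pseudocount of 0.1. It lay 1.22 above the median of the genes that passed the minimum, 1.37 on the exonic scale and 5.44 without a minimum, where low genes enter. As single genes, 8 of the 9 were higher and M1BP was lower on the exonic scale.

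No paired analysis was possible because there is a single group. The motifs in promoters, with a window of 100 bases as the alternative, were not run. The interval between the libraries is the widest at Trl, which has the fewest counts and of whose exonic bases 22.2% are countable.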
